A study of Mus musculus with 6 samples.

Results

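Notch signalling passes between touching cells. Ligands of the Delta and Jagged families on one cell bind Notch receptors on its neighbour, the receptor is cut by ADAM proteases and gamma-secretase, and the freed intracellular domain joins the DNA-binding protein RBPJ in the nucleus to switch on genes of the Hes and Hey families. Hes and Hey proteins are basic helix-loop-helix (bHLH) repressors that hold back differentiation of neural progenitors, and in glia the pathway is known for keeping precursors from maturing and for its use in astrocytes and blood vessels. The 10 genes described here are the receptors Notch1 and Notch2, the ligands Dll1, Dll3 and Jag1, the nuclear partner Rbpj, and the targets Hes1, Hes5, Hey1 and Hey2. They were chosen by gene symbol, with the difference between crushed and sham nerves already known, so their values in that comparison are a description with no test. All 10 were among the 25755 genes of the deposited table, and none was lost to a filter on low values.

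Bulk RNA was sequenced from optic nerves of 6 mice, all of genotype NF1flox/flox;hGFAP-Cre, in which the Nf1 gene is floxed and Cre is driven by the human GFAP promoter, active in neuroglial progenitors and their descendants. Of these, 3 mice (mice 1, 2 and 3) had sham surgery and 3 (mice 4, 5 and 6) had optic nerve crush (ON-CR), a mechanical injury of the nerve. Surgery was at 6 weeks of age and the nerves were taken at 12 weeks, which the labels give as 3 months. Both groups carry the Cre and the floxed gene, and no nerve without the deletion entered the comparison. It sets crush against sham in this genotype, with sex-linked transcripts differing as well, as given below.

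The values are normalized signals, that is, estimated read counts divided by 1 factor per library, and 1 read was worth between 0.885 and 1.06. Depth was 17414091 to 23621006 estimated reads per library, and the deepest ON-CR library held fewer reads than the shallowest sham library. Nf1 signal ranged from 343 to 447 in the sham nerves and from 380 to 438 in the ON-CR nerves. Of 11 astrocyte markers none was at 0 in any library, and the same held for 10 markers of oligodendrocyte precursors and 10 of mature oligodendrocytes, cell types that an optic nerve should hold. Some libraries stood apart in genes outside the pathway. The X-inactivation transcript Xist was at 2.14 to 30.9 in sham nerves and at 2708 to 6357 in ON-CR nerves, while the Y-linked gene Ddx3y was at 1291 to 1645 in sham nerves and at 976 in ON-CR mouse 4, 4.19 in mouse 5 and 0 in mouse 6. Sex and surgery can therefore not be told apart in these libraries, and the library labelled ON-CR mouse 4 held both transcripts at high signal. The labels give each library 1 mouse number, while the study's methods for optic nerve RNA, in a section on PCR, give 2 mice per sample, so a library may hold more than 1 animal and n counts libraries. The immunoglobulin gene Igkc reached 83710 in ON-CR mouse 6, and the airway gene Bpifa1 was at 7568 in sham mouse 3, at 4579 and 5894 in ON-CR mice 5 and 6 and at most 22.3 in the others.

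Hes5 was lower in ON-CR nerves than in sham nerves, at 17.5% of the sham mean, and was the member with the widest separation. The other 9 members had log2 fold changes (ON-CR minus sham, on the log2(value + 1) scale) between -0.41 and 0.70. Of the 10 members, 1 was called lower and 0 higher at an adjusted p of at most 0.05 by limma over all genes, and 3 had an unadjusted p under 0.05. Over all 25755 genes, 2.10% were called, 0.971% higher and 1.13% lower, and 15.6% had an unadjusted p under 0.05. Because the members were chosen on this contrast, nothing is read from these counts. Hes5 and Hey2, 2 of the 10 members, had groups without overlap, as did 21.6% of all genes. The median log2 fold change was 0.01 over the members and 0.03 over all genes. With 3 mice against 3, an exact permutation test of a single gene cannot go below a p of 0.1.

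**Figure D1:**
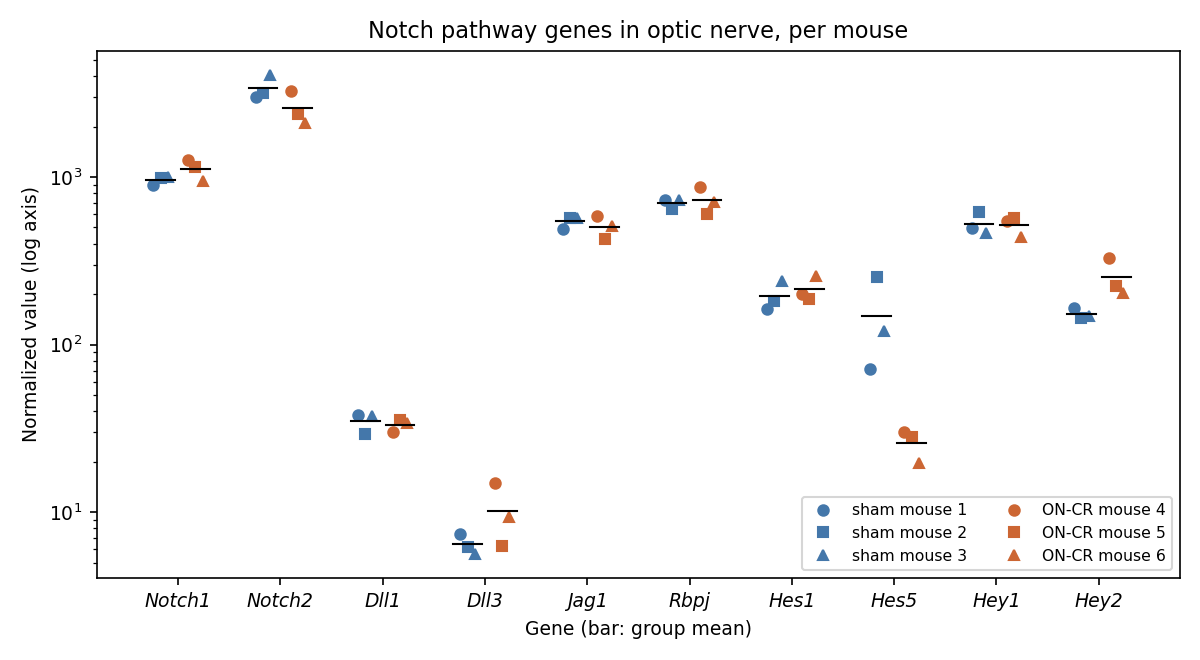
Normalized signal of the 10 members in each of the 3 sham and 3 ON-CR nerves (log axis); points are mice and horizontal bars are group means. Hes5 lies between 71.1 and 253.8 in sham nerves and between 19.73 and 29.91 in ON-CR nerves, Hey2 lies higher in all ON-CR nerves, and the groups overlap for the other 8 members.

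The promoters of Hes5 and Hey2 are shown because these 2 targets are the members whose groups did not overlap, in opposite directions. Each sequence is the 250 bases before the start that RefSeq gives the gene on GRCm38.p6, 5′ to 3′ on the gene's own strand, and capitals mark GTGGGAA, the sequence that RBPJ is known to bind, or its reverse complement. The Hes5 window is chr4:154960673-154960922 on the plus strand and the Hey2 window is chr10:30842784-30843033 on the minus strand, where the RefSeq start lies slightly inside the gene ends given below from another annotation.
Hes5: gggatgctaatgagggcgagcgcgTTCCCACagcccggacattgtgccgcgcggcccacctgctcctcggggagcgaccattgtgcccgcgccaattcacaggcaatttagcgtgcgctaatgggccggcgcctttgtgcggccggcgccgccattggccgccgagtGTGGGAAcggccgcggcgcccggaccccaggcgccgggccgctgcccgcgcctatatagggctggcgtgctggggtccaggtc
Hey2: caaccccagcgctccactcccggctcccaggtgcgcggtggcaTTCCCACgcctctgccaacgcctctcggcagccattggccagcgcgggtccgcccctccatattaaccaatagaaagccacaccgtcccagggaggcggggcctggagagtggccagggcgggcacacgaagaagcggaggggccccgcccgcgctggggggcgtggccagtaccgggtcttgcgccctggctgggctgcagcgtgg

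Hes5 held 2 matches, starting 226 bases before the start on the opposite strand and 83 bases before it on the gene's strand. Hey2 held 1, starting 207 bases before the start on the opposite strand. Searched on both strands in 32851 RefSeq promoter windows of the same length, GTGGGAA was in 5.42% of windows, and 2 or more matches were in 0.161%. The shorter TGGGAA, which every GTGGGAA contains, was in 21.6% of windows and, among members, in those of Hes5, Hey2 and Rbpj. The E-box and N-box type sequences that Hes and Hey proteins are known to bind were searched as CACGNG, found in 23.5% of windows and in those of Dll1, Jag1 and Notch2, and as CACNAG, found in 36.7% and in those of Notch1 and Notch2. Of the 10 members, 8 had an entry, with 10 windows between them, and Hes1 and Hey1 had none. These matches are a description of the letters, and no binding was measured.

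Hes5 (ENSMUSG00000048001.7, GRCm38 chromosome 4, 154960923 to 154962371, plus strand) encodes a bHLH repressor that Notch switches on in neural stem cells and glial progenitors. Its signal in sham mice 1, 2 and 3 was 71.1, 253.8 and 119.9, against 29.91, 28.3 and 19.73 for ON-CR mice 4, 5 and 6. These rest on 67, 287 and 128 estimated reads in the sham libraries and on 30, 27 and 19 in the ON-CR libraries. Every ON-CR nerve was below every sham nerve, and the sham nerves were spread more widely than the ON-CR nerves. The means were 148.3 ± 94.58 and 25.98 ± 5.475 (SD, n = 3 each), a ratio of 5.71 sham over ON-CR. The log2 fold change was -2.30 with a standard error of 0.43 and a 95% interval from -3.24 to -1.35. Leaving out single mice moved it between -2.72 (without sham mouse 1) and -1.81 (without sham mouse 2), and the call was lost without sham mouse 2, sham mouse 3 or ON-CR mouse 6. Gm20421, on the other strand, overlaps 433 exon bases of Hes5, 31.8% of its exon sequence, and the strand setting of the counting is not given in the sources used here, so reads in that stretch could come from either gene.

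The other 3 targets did not follow Hes5. Hes1 (ENSMUSG00000022528.8, chromosome 16, 30064384 to 30067796, plus strand), the Hes repressor used most broadly across tissues, was at 162.4, 181.5 and 238.5 in sham nerves and at 200.4, 186.6 and 255.4 in ON-CR nerves. The groups overlapped, with a log2 fold change of 0.15 (standard error 0.20, 95% interval -0.31 to 0.60). The ratio of Hes5 to Hes1 signal was 0.438, 1.4 and 0.503 in the sham nerves, against 0.149, 0.152 and 0.0772 in the ON-CR nerves. Every ON-CR nerve was below every sham nerve in this ratio, which cancels the factor of each library. It restates the values of Hes5, chosen on this contrast, over a gene that hardly differed, so nothing is read from it.

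Hey1 and Hey2 encode related repressors best known from the heart and arteries. Hey1 (ENSMUSG00000040289.8, chromosome 3, 8663359 to 8667256, minus strand) was at 494.5, 619.8 and 463.9 in sham nerves and at 545.4, 570.3 and 440.3 in ON-CR nerves. Its log2 fold change was -0.02 (standard error 0.16, 95% interval -0.37 to 0.34), and the sign turned with upper-quartile scaling or equal library totals. Hey2 (ENSMUSG00000019789.9, chromosome 10, 30832359 to 30842801, minus strand) was at 164.5, 143.4 and 147.4 in sham nerves and at 328.0, 224.3 and 203.5 in ON-CR nerves. Every ON-CR nerve was above every sham nerve, with means of 151.8 ± 11.18 and 252.0 ± 66.7 (SD, n = 3 each), a ratio of 1.66. The log2 fold change was 0.70 (standard error 0.21, 95% interval 0.24 to 1.16) and was not called. It was lowest, 0.49, without ON-CR mouse 4, which had the highest Hey2 signal. The ratio of Hes5 to Hey2 signal was between 0.432 and 1.77 in sham nerves and between 0.0912 and 0.126 in ON-CR nerves. This ratio also restates members chosen on this contrast, and nothing is read from it. The summed signal of 6 arterial endothelial markers was 501.3 to 677.6 in sham nerves and 467.8 to 635.6 in ON-CR nerves, and that of 9 mural cell markers was 14557 to 16470 and 11388 to 16011. Neither range was separated between the groups, and the mural sum was dominated by Vtn. No gene of either list was called, with 0 of the arterial and 2 of the mural genes at an unadjusted p under 0.05 by limma. Those 2, Pdgfrb and Des (log2 fold change -0.78), were lower after crush, while 6 of the 9 mural genes were above 0 and 3 below. The first 3 genes of these lists were at -0.29 (the connexin Gja4), 0.33 (the connexin Gja5) and -0.01 (the ephrin Efnb2) on the log2 scale, and at -0.35 (the growth factor receptor Pdgfrb), 0.19 (Rgs5) and 0.10 (the potassium channel Kcnj8). The part of vessel cells in the Hey2 difference was not tested.

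**Figure D2:**
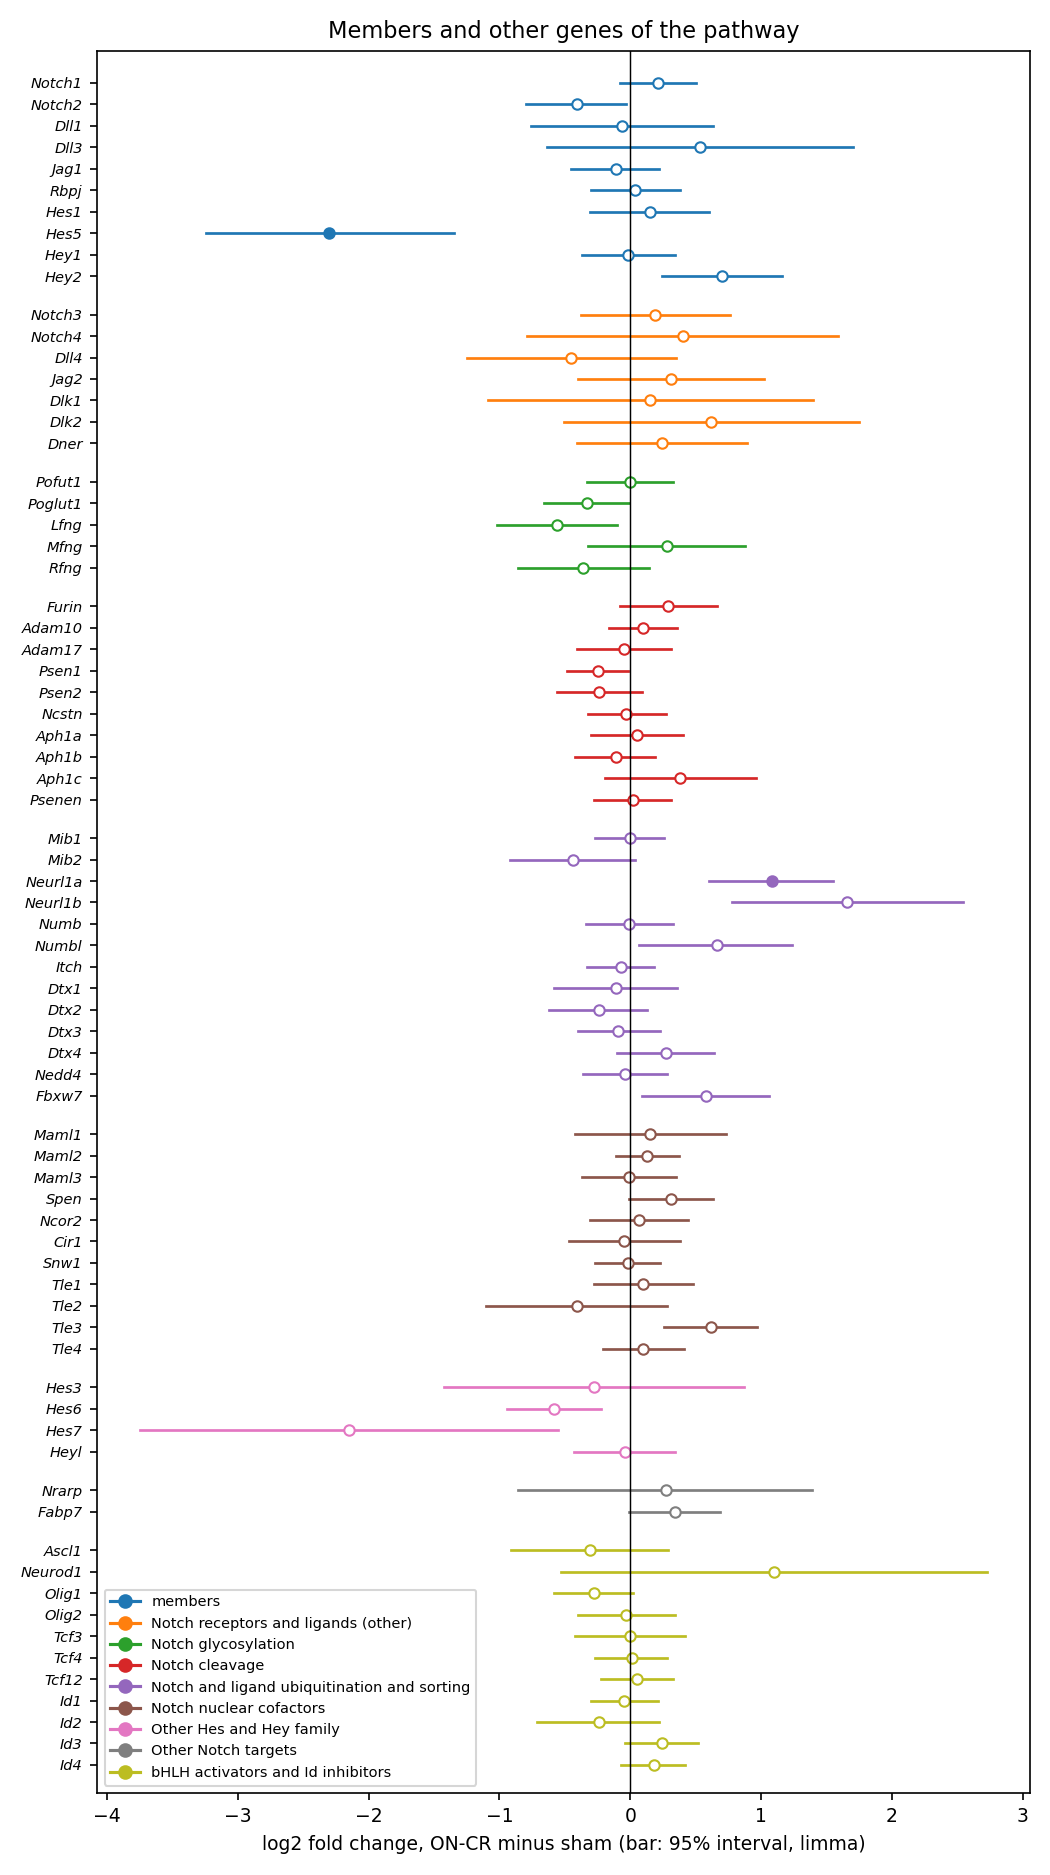
Log2 fold change of each member and of 63 other genes of the pathway, ON-CR minus sham, on the log2(value + 1) scale; bars are 95% limma intervals and filled points are genes called at an adjusted p of at most 0.05. Hes5 at -2.30 and Neurl1a at 1.08 are the filled points, and Hes7, which rests on 5 or fewer reads in every library, has a fitted value that depends on the pseudocount.

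Both receptors were read at high signal. Notch1 (ENSMUSG00000026923.15, chromosome 2, 26457903 to 26516663, minus strand), the receptor studied most in neural progenitors, was at 902.4, 984.2 and 1001 in sham nerves and at 1265, 1143 and 952.7 in ON-CR nerves. The groups overlapped through ON-CR mouse 6, and the log2 fold change was 0.21 (standard error 0.13, 95% interval -0.08 to 0.50). On the other strand, 0610009E02Rik overlaps 7.5% and Gm13568 overlaps 2.9% of the exon bases of Notch1. Notch2 (ENSMUSG00000027878.11, chromosome 3, 98013527 to 98150361, plus strand) was at 3018, 3160 and 4079 in sham nerves and at 3266, 2385 and 2114 in ON-CR nerves. Its groups overlapped through ON-CR mouse 4, and its log2 fold change of -0.41 (standard error 0.17, 95% interval -0.80 to -0.03) was not called. Gm42820 shares 5.0% of its exon bases on the same strand. The ratio of Notch2 to Notch1 was 3.34, 3.21 and 4.08 in the sham nerves, against 2.58, 2.09 and 2.22 in the ON-CR nerves. Every ON-CR nerve was thus below every sham nerve in this ratio, and neither receptor was called. The ratio restates the values of 2 members chosen on this contrast. How often other pairs of genes separate was not computed, so nothing is read from it.

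None of the 3 ligands was called, and their groups overlapped. Jag1 (ENSMUSG00000027276.7, chromosome 2, 137081456 to 137116644, minus strand), a ligand of astrocytes and vessels, was at 491.3, 569.3 and 572.9 in sham nerves and at 584.3, 426.7 and 508.8 in ON-CR nerves, and its log2 fold change was -0.11 (standard error 0.15, 95% interval -0.45 to 0.22). Dll1 (ENSMUSG00000014773.13, chromosome 17, 15367354 to 15376872, minus strand), a ligand that activates Notch in neighbouring cells, was at 38.2, 29.22 and 37.57 in sham nerves and at 29.91, 35.64 and 34.27 in ON-CR nerves, with a log2 fold change of -0.06 (standard error 0.31, 95% interval -0.76 to 0.63). Its sign, and that of Jag1, turned with equal library totals. A930024N18Rik overlaps 20.5% of the exon bases of Dll1 on the other strand. The ratio of Jag1 to Dll1 was 12.9, 19.5 and 15.3 in the sham nerves, and the ON-CR nerves overlapped that range.

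Dll3 (ENSMUSG00000003436.11, chromosome 7, 28293553 to 28302238, minus strand) is a divergent Delta protein that acts within the cell and restrains Notch. Its signal was 7.428, 6.198 and 5.642 in sham nerves and 14.96, 6.29 and 9.345 in ON-CR nerves, from 7, 7 and 6 and from 15, 6 and 9 estimated reads. At this depth a difference was not detectable, and the 95% interval of the log2 fold change of 0.53 ran from -0.64 to 1.70. Rbpj (ENSMUSG00000039191.12, chromosome 5, 53466152 to 53657362, plus strand), which represses the targets without the receptor domain and activates them with it, was at 727.7, 646.9 and 733.0 in sham nerves and at 873.4, 605.4 and 705.9 in ON-CR nerves. The sham values fell within the ON-CR range, and the log2 fold change was 0.04 (standard error 0.15, 95% interval -0.30 to 0.38).

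To compare levels between genes, each signal was divided by the length in kilobases of the gene's principal transcript. Notch2 was highest, with a sham median of 301 signal per kilobase, followed by Hey1 at 204. Rbpj at 134, Hes1 at 124, Notch1 at 104 and then Jag1, with a lowest value of 87.5, came next. Among neighbours in this order, the sham ranges of Rbpj and Hes1 overlapped, as did those of Notch1 and Jag1, while Notch2, Hey1 and Rbpj were separate from one another and Hes1 lay above Notch1 in every sham nerve. Hes5 had a sham median of 94.2, with mice at 55.9, 199 and 94.2, a range that covers those of its neighbours Jag1 and Hey2. Hey2 had a sham median of 57.8, Dll1 of 10.5 and Dll3 of 2.37, and these 3 did not overlap one another. In ON-CR nerves Hes5 had a median of 22.2 (range 15.5 to 23.5) and Hey2 of 88 (range 79.8 to 129), so Hey2 stood above Hes5 in every ON-CR nerve. Notch2 and Hey1 were also first and second by median in ON-CR nerves, at 227 and 225, but their ranges overlapped there and Hey1 was above Notch2 in ON-CR mouse 5. The order depends on the transcript taken. With the merged exon length of each gene in place of the principal transcript, Rbpj had a sham median of 57.1, and Hes5 at 20.8 stayed below Hey2 at 48.8 by median in ON-CR nerves.

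In a bulk sample, fewer cells that express a gene and less RNA per cell cannot be told apart, so markers of the cells known to express Hes5 were set beside it. The astrocyte markers summed to 232785 to 285296 in sham nerves and to 297246 to 327286 in ON-CR nerves, a sum dominated by Gfap. The other 10 genes summed to 161888, 162831 and 133599 in sham nerves and to 140781, 131455 and 124329 in ON-CR nerves, groups that overlapped, with the lower mean after crush. Of the 11 genes, S100b was called lower (log2 fold change -0.75, adjusted p = 0.0185) and 0 were called higher, and 6 had an unadjusted p under 0.05 by limma, in both directions. Gfap, an intermediate filament protein, differed by 0.64 on the log2 scale (adjusted p = 0.0859), the water channel Aqp4 by 0.43 (adjusted p = 0.175) and the glutamate transporter Slc1a3 by 0.31 (adjusted p = 0.269), all 3 with every ON-CR nerve above every sham nerve. Aldoc, a glycolytic enzyme, was at -0.62 (adjusted p = 0.095) and the connexin Gjb6 at -0.42 (adjusted p = 0.0751), both with every ON-CR nerve below every sham nerve. The precursor markers summed to 12391 to 12936 and 13111 to 14207. Of 10 genes, Lhfpl3 rose (log2 fold change 0.61, adjusted p = 0.0393), while the growth factor receptor Pdgfra was at -0.29 on the log2 scale (adjusted p = 0.294), the proteoglycan Cspg4 at 0.17 (adjusted p = 0.555) and the phosphatase Ptprz1 at 0.22 (adjusted p = 0.368). Of this list 4 genes had an unadjusted p under 0.05, and besides Lhfpl3 and Pdgfra these were Neu4 at -0.40 (adjusted p = 0.107) and Gpr17 at -0.26 (adjusted p = 0.258).

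Measured against the mean log2 signal of the astrocyte list within each nerve, Hes5 was at -7.45, -5.65 and -6.45 in the sham nerves, against -8.62, -8.63 and -9.05 in the ON-CR nerves. The group means were -6.52 ± 0.90 and -8.77 ± 0.25 (SD, n = 3 each), a difference of -2.25, while the list's own mean differed by -0.04. Against the precursor list, Hes5 was at -3.68, -1.93 and -3.01 in sham nerves and at -5.07, -5.00 and -5.52 in ON-CR nerves, a difference of -2.32, and the list's own mean differed by 0.03. Leaving Gfap out of the astrocyte list, a choice made after its values were seen, gave a Hes5 difference of -2.18. The Hes5 groups did not overlap against either list. Since Hes5 was chosen on this contrast and the list means hardly differed, this separation restates the Hes5 values, and nothing is read from it. Because each list holds genes that went in both directions, its mean near 0 does not show that the number of those cells was the same, and the part of cell numbers in the Hes5 difference was not tested.

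**Figure D3:**
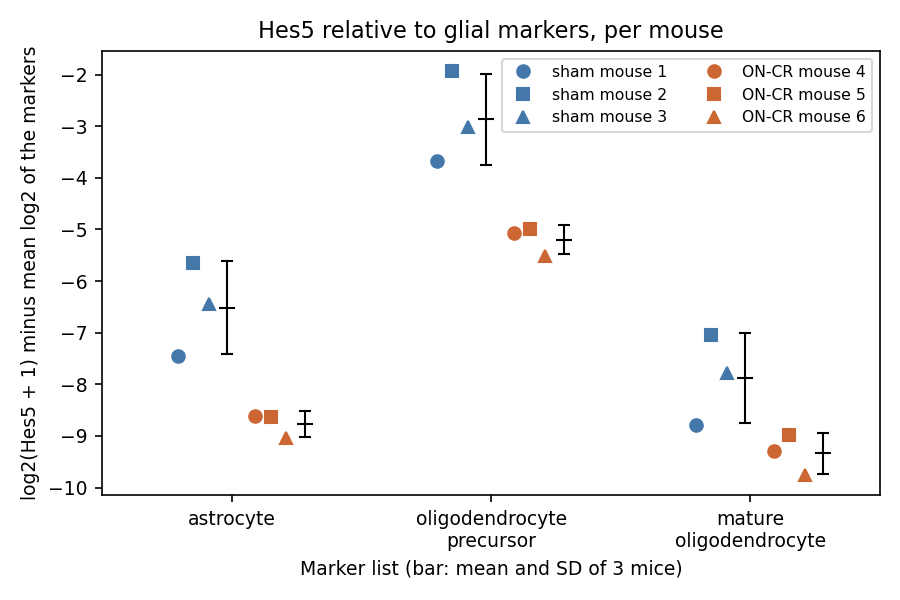
Log2 signal of Hes5 minus the mean log2 signal of each marker list, for each nerve (points; bars are the group mean and SD, n = 3). All ON-CR nerves lie below all sham nerves for the astrocyte, precursor and mature oligodendrocyte lists, by -2.25, -2.32 and -1.47 on average. Hes5 was chosen on this contrast, so the separation is a description of its values.

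The markers of mature oligodendrocytes moved in the same direction as Hes5. Their sum was 1848598, 1662685 and 1293645 in sham nerves and 748270, 631361 and 664817 in ON-CR nerves. Of the 10 genes, 7 were called lower, as were 1.13% of all genes, with all 10 below 0 and a list median of -0.84. Among them were the myelin proteins Mbp (log2 fold change -1.42, adjusted p = 0.0117) and Mog (-0.90, adjusted p = 0.0214). Relative to this list, added after the values were seen, Hes5 differed by -1.47, from -7.88 ± 0.87 to -9.34 ± 0.39 (SD, n = 3 each), and the list's own mean by -0.83. The part of this list in the Hes5 difference was not tested. Proliferation markers moved the other way, with sums of 228.4 to 314.4 in sham nerves and 679 to 1249 in ON-CR nerves. All 6 genes were above 0, with groups that did not overlap. Of the 6, 4 were called higher, as were 0.971% of all genes. Mki67 rose by 1.89 (adjusted p = 0.0421), Top2a by 1.84 (adjusted p = 0.00307) and Cdk1 by 1.60 (adjusted p = 0.0288) on the log2 scale, and the part of dividing cells was not tested either.

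The genes whose profile over the 6 nerves was most like that of Hes5 were found by the root-mean-square difference between log2 profiles, each centred on its own mean, among 14435 genes with a mean signal of at least 50. They were Znhit2, Btbd17 and Hapln2 at 0.46, Hspb1 at 0.47 and Fdx1 at 0.48. Their log2 fold changes were -1.92, -1.67, -3.08, -1.73 and -1.69 in that order, and the measure uses the same 6 nerves as the contrast. Hapln2 encodes a hyaluronan-binding link protein found around nodes of Ranvier, Hspb1 a small heat shock protein and Fdx1 a mitochondrial ferredoxin. By the same measure the other members lay between 1.09 (Notch2) and 1.61 (Hey2). The 5 genes were picked as the nearest of 14435, and the measure grows with any difference in fold change. Nothing is therefore read from the gap between them and the members.

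**Figure D4:**
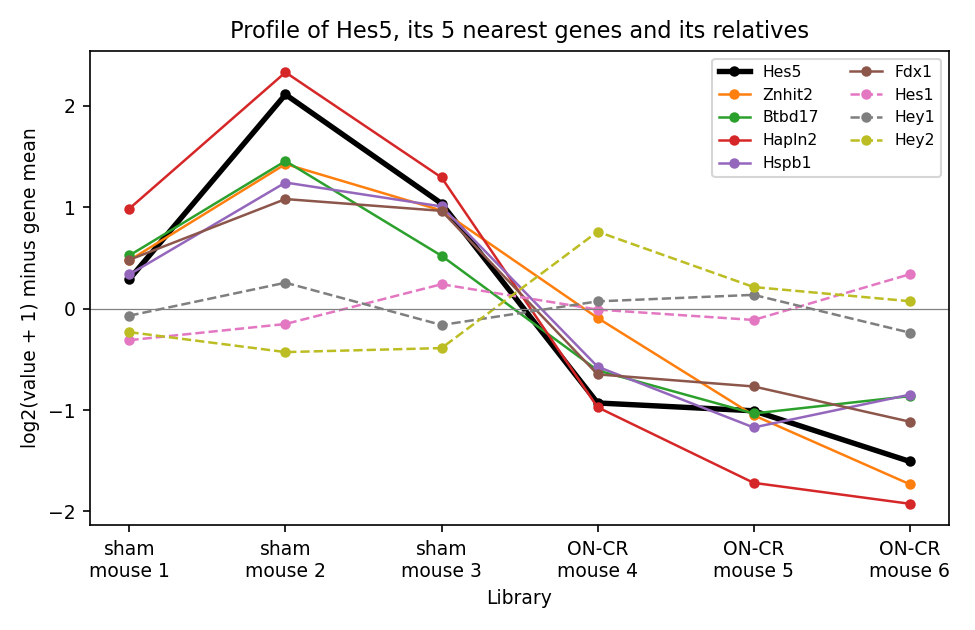
Log2 signal of Hes5, of the 5 genes most like it and of Hes1, Hey1 and Hey2 (dashed) in each nerve. Each gene is centred on its own mean over the 6 nerves, and the nerves have no order within a group. Hes5 and its 5 nearest genes lie higher in sham nerves, and Hes5 is highest in sham mouse 2 and lowest in ON-CR mouse 6.

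Of 68 other genes of the pathway and its bHLH partners, 63 were in the table. In this wider list 1 gene was called higher (Neurl1a), 0 lower and 62 neither, 10 had an unadjusted p under 0.05, and the median log2 fold change was 0.00. For 14 of the 63 the groups did not overlap. Both counts are near the shares over all genes, of which 15.6% had an unadjusted p under 0.05 and 21.6% had groups without overlap. Neurl1a encodes a ubiquitin ligase of the Neuralized family, which acts on Notch ligands. It was at 147.5, 146.7 and 130.5 in sham nerves and at 238.1, 406.7 and 276.2 in ON-CR nerves, and rose by 1.08 on the log2 scale, with a standard error of 0.21 and an adjusted p of 0.032. The adjusted p was 0.105 without sham mouse 1, 0.139 without sham mouse 2, 0.113 without sham mouse 3 and 0.158 without ON-CR mouse 6, and over all alternatives it lay between 0.0175 and 0.206. Its highest value was in ON-CR mouse 5, whose neuron markers summed to 6842 against 974.1 to 3160 in the other nerves. Without that mouse the log2 fold change of Neurl1a was 0.85 (adjusted p = 0.0396 by limma). The part of neurons in the Neurl1a difference was not tested. The neuronal genes Rbfox3, Snap25 and Syt1 were at 0.82, 0.40 and 0.79 on the log2 scale, and none of 7 neuron markers was called or had an unadjusted p under 0.05 by limma. The related Neurl1b, named after its values were seen, was at 14.86, 13.52 and 32.32 in sham nerves and at 52.08, 57.04 and 77.15 in ON-CR nerves, and its difference of 1.66 on the log2 scale, with a standard error of 0.40, missed the threshold (adjusted p = 0.067). Its adjusted p was 0.0494 without sham mouse 3, and over all alternatives it lay between 0.0441 and 0.29. Of the 13 genes of ubiquitination and sorting, Numbl, related to the Notch inhibitor Numb, differed by 0.66 on the log2 scale (adjusted p = 0.261) and Fbxw7, which targets the intracellular domain for degradation, by 0.58 (adjusted p = 0.232).

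The remaining steps of the pathway held no called gene. In the 10 genes of receptor cleavage, gamma-secretase subunits and ADAM proteases among them, log2 fold changes were between -0.25 and 0.38, and 1 had an unadjusted p under 0.05. In the 5 genes of receptor glycosylation the median was -0.33 and 2 had an unadjusted p under 0.05. The largest difference in that list was in Lfng, a glycosyltransferase that alters which ligand a receptor answers to, at 175.1, 270.9 and 247 in sham nerves and 162.5, 165.6 and 135 in ON-CR nerves (log2 fold change -0.56, adjusted p = 0.218). Of the 11 nuclear cofactors, 1 had an unadjusted p under 0.05. This was Tle3, a corepressor of Hes proteins, at 244.1, 296.6 and 328.7 in sham nerves and 459.7, 397.3 and 470.4 in ON-CR nerves, with groups that did not overlap (log2 fold change 0.62, adjusted p = 0.084). The 7 other receptors and ligands had a median of 0.24 and none at an unadjusted p under 0.05. Among these, the non-canonical ligand Dner was at 464.8, 301 and 231 in sham nerves and 273.2, 551.4 and 354.1 in ON-CR nerves. It was highest in ON-CR mouse 5 and sham mouse 1, the 2 nerves with the highest neuron marker sums. Dner was named after its values were seen, and the part of neurons in its signal was not tested.

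Of the other Hes and Hey genes, 4 of 6 were in the table and all 4 had a log2 fold change below 0. Hes6, a family member known to oppose Hes1, was at 285.5, 384.2 and 316.5 in sham nerves and at 226.3, 212.8 and 212.9 in ON-CR nerves, without overlap (log2 fold change -0.58, adjusted p = 0.105). Hes7, a gene of the segmentation clock, had 3, 3 and 5 estimated reads in sham nerves and 0 in each ON-CR nerve, too few for a fold. On the log2 scale Heyl was at -0.04 (adjusted p = 0.933) and Hes3 at -0.28 (adjusted p = 0.851). Hes3 rested on only 10, 8 and 8 estimated reads in sham nerves and on 9, 5 and 6 in ON-CR nerves. The 2 other targets were Nrarp, a feedback inhibitor of Notch, at 0.27 on the log2 scale (adjusted p = 0.852) and Fabp7, the fatty acid binding protein of radial glia, at 0.34 (adjusted p = 0.333). Nrarp rested on 10 to 43 estimated reads per library. Among 11 bHLH activators and Id inhibitors the median was 0.00, and none had an unadjusted p under 0.05.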

How the data were processed

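Bulk RNA sequencing of optic nerves from 3 sham and 3 ON-CR mice was used, grouped by the labels. Libraries were made from 10 ng of total RNA. The authors aligned and quantified reads with DRAGEN 3.9.3-8 on mm10, applied median normalization in Partek 10.0 and tested with DESeq2. The deposited values are a normalized signal per gene, not raw counts, and 70.2% to 72.8% of values under 50 reads per library were whole reads after division by the value of 1 read (tolerance 0.02). Depth was computed from these estimated reads.

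Log2(signal + 1) was tested with limma 3.58.1 in R 4.3.3 (mean-variance trend, two-sided, Benjamini-Hochberg over 25755 genes), and the script was tested on simulated data. Genes with a mean under 1 were to be dropped, and there were none. The labels number 1 mouse per library and the methods for optic nerve RNA, written for PCR, give 2 mice per sample, so p-values measure the spread between these 6 libraries. Positions are from GRCm38 annotation. Named were all members, wider pathway genes that were called, the 6 of them with the largest fold change at a mean of at least 50, the first 3 markers of lists set beside a result (1 result is not reported here), and the 5 profiles most like Hes5. Others, among them Neurl1b, Dner, Hes3, Hes7, Heyl, Nrarp, Fabp7, S100b, Aldoc, Gjb6, Lhfpl3, Neu4 and Gpr17, were named after their values were seen. The members and lists were chosen with earlier results of these data known.

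Alternatives were pseudocounts of 0.5 and 2, a mean of at least 10, no filter, 3 other scalings, a robust fit, no trend, array weights, leaving out each mouse and, added after seeing the data, the astrocyte list without Gfap.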

Additional observations from a re-analysis of the deposited data

How the results depend on the processing

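Across 16 alternatives Hes5 was below 0 in 16 and called in 12. Hes5 was chosen on this contrast and its groups did not overlap, so its sign could hardly turn. Nothing is read from that count. The number of genes called, 540 as reported, was 7 without the mean-variance trend, and between 67 and 854 when single mice were left out, the lowest on omitting ON-CR mouse 6 and the highest on omitting mouse 5. It was also 192, 123 and 258 without sham mice 1, 2 and 3. Called members numbered 0 without the trend (2 at an unadjusted p under 0.05, limma) and 0 to 1 on leaving out mice, with 2 or 3 at an unadjusted p under 0.05 throughout. In the wider list, 2 genes were called with the robust fit and with array weights (Neurl1a and Neurl1b), 0 without the trend (7 at an unadjusted p under 0.05), and 0 to 1 on leaving out mice, where the 1 gene was Neurl1b in place of Neurl1a without sham mouse 3. The cause of these shifts was not tested. With equal library totals, 421 genes were higher and 195 lower, against 250 and 290 as reported, and the median of all genes moved to 0.151. Hey1, Dll1, Jag1 and Rbpj, all uncalled and near 0, changed sign under some settings. Median-of-ratios scaling and no filter gave the reported values. No paired analysis was possible because the labels number the mice 1 to 3 in one group and 4 to 6 in the other. Depth limits Dll3, Hes3 and Hes7, among other genes of low signal.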

Other observations

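Marker lists of other cell types were summed in each nerve. Microglial markers summed to 15320 to 19675 in sham nerves and 19396 to 29403 in ON-CR nerves. Of 8 genes, 2 were called higher (Aif1 and C1qa), as were 0.971% of all genes. Log2 fold changes were above 0 for 6 of the 8 and below 0 for 2, P2ry12 at -0.35 and Tmem119 at -0.27. Of 6 Schwann cell markers 1 was called higher, Egr2, at 2.04 on the log2 scale. The Schwann cell sums, 7187 to 8620 in sham nerves and 5509 to 8108 in ON-CR nerves, were dominated by Pmp22, at -0.24. Log2 fold changes were above 0 for 4 of the 6 and below 0 for 2. No gene was called among 10 endothelial markers (1 at an unadjusted p under 0.05 by limma), 7 meningeal fibroblast markers (4), 7 neuron markers (0), 6 B and plasma cell markers (0), 4 photoreceptor markers (1), 4 airway markers (0) and 5 skeletal muscle markers (0). The B and plasma cell sum was 98472 in ON-CR mouse 6 and at most 2399 in the other nerves.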
